A study of Mus musculus with 6 samples.

Results

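The PBX, MEIS and PREP genes encode transcription factors of the TALE class, a group of homeobox genes set apart by extra residues in the loop between the first and second helices of the homeodomain. The members described here were the rows of the count tables that carry the symbols Pbx2, Pbx3, Pbx4, Meis1, Meis2, Meis3, Pknox1 and Pknox2. All 8 were found among 37991 gene identifiers, and all 8 passed the filter on low counts that left 15227 genes for testing. They were measured in Müllerian duct mesenchyme of mouse embryos at embryonic day 14.5, in 3 female and 3 male libraries. In females the duct becomes oviduct, uterus and upper vagina, and in males anti-Müllerian hormone makes it regress, and the comparison asks which genes differ between male and female mesenchyme at that stage.

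Both groups had the genotype Amhr2Cre/+ with R26R YFP/+ on a mixed background of C57BL/6J x 129/SvEv, so that females and males alike carried 1 Amhr2 allele with Cre and 1 Cre-activated YFP reporter. The sort therefore kept cells with present or past activity of the Amhr2 locus, which somatic cells of the gonad also use. Each library was a pool of cells from 2 to 7 embryos with at least 100 ng of total RNA. In such bulk samples, fewer cells of a type and less RNA per cell cannot be told apart.

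PBX proteins bind DNA together with HOX proteins and raise the specificity with which a HOX protein chooses its sites. MEIS and PREP proteins, the latter encoded by Pknox1 and Pknox2, bind PBX through a shared domain near their amino terminus and help to hold PBX in the nucleus. MEIS and PREP compete for PBX, and PREP forms many complexes that lack HOX. In the developing reproductive tract, HOX genes at the posterior end of the clusters pattern the duct along its length.

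The coding stretches of the homeodomain show how alike the members are, which bears on whether 76-base reads can be assigned to 1 gene. They were read from the reference transcripts of the build GRCm38, 5′ to 3′ on the coding strand, at 63 codons each. The capitals mark 3 codons of the loop, from codon 27. Their residues are the same in all 8 genes because the search for the stretches required them. The MEIS genes and the most abundant PBX and PREP gene are given:
Meis1: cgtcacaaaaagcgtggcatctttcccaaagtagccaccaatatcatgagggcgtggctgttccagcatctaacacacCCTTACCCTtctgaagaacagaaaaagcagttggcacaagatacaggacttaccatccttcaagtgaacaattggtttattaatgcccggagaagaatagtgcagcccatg
Meis2: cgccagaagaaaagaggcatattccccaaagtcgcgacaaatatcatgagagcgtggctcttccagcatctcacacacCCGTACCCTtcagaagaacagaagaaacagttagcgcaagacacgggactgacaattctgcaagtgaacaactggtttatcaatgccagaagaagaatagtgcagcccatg
Meis3: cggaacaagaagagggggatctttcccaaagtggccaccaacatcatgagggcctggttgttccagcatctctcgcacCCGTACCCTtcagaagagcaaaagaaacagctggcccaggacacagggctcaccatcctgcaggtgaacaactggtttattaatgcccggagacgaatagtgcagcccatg
Pbx2: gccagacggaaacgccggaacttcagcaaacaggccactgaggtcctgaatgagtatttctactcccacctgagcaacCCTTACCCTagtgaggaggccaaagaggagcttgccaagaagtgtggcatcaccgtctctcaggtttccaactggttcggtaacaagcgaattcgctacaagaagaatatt
Pknox1: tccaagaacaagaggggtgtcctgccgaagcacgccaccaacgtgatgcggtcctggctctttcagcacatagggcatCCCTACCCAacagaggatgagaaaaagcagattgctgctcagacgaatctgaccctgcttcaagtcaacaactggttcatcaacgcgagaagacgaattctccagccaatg
Meis1 and Meis2 encode 62 identical residues of 63, and Meis1 and Meis3 encode 61, yet at the level of bases the identity was 84.1% and 84.7%. Pbx2 and Pbx3 encode 61 identical residues, with a base identity of 82.5%, and Pknox1 and Pknox2 encode 59, with 78.3%. Meis1 and Pknox1 share 44 residues of the homeodomain and Meis1 and Pbx2 only 27. None of the 28 pairs of members shared a run of 76 bases in any reference transcript, and the longest shared run, between Meis2 and Pknox2, was 42 bases. Of the members, 2 overlap another counted gene in their exons. Pbx2 does so with Gpsm3 on the same strand, which held 89 to 251 counts per library, and Meis1 with the antisense gene Gm16140, which held 1 to 6.

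Library size was even, at 22511872 to 24749859 counts in genes. Xist and the Y-linked genes went with the labelled sex in all 6 libraries. Xist had 4729, 277.5 and 1513 CPM (counts scaled to library size with TMM factors) in the female replicates 1, 2 and 3. It had at most 2.22 CPM in male libraries. Ddx3y had 159.1, 17.1 and 27.6 CPM in the male replicates 1, 2 and 3, and at most 0.0492 CPM in female libraries. For both genes replicate 1 was the highest and replicate 2 the lowest library of that sex. All 10 markers fixed for the labelled mesenchyme were above 1 CPM in at least 1 library, and their summed level overlapped between the sexes. Gene by gene, Pdgfra lay higher in every male library (590 to 1310 CPM) than in any female one (279 to 494 CPM). Hoxa10, Hoxa11 and Emx2 lay lower in every male library, Emx2 at 28.1 to 54.0 CPM against 72.8 to 137.9 CPM in female ones. The other markers of the list overlapped, and none of the 10 passed the test of male against female given below. Of all genes tested 13.7% did not overlap. Replicate 1 and replicate 2 of both sexes lay at opposite ends of principal component 1 (65.6% of the variance). Counts outside annotated genes made up 17.5% and 18.2% in the replicate 1 libraries of females and males and 3.53% to 8.65% in the other 4.

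The members differed between the same libraries, in a direction that went with the base composition of their transcripts. In the AT-rich transcripts of Meis2, Meis1 and Pbx3, with a GC content of 43.8%, 42.4% and 38.8%, replicate 1 was above replicate 2 in both sexes. For Meis2 that difference was 1.28 in females and 1.82 in males on the log2 CPM scale. In the GC-rich transcripts of Pbx2, Meis3, Pknox2 and Pbx4, at 52.9% to 59.4%, replicate 1 was below replicate 2 in both sexes, for Pbx2 by a log2 difference of −1.08 in females and −1.19 in males. Pknox1, at 49.8%, differed least, with −0.35 and −0.15. Across the 8 members the correlation of GC content with the mean of these differences was −0.88, and −0.79 when the longest protein-coding transcript gave the GC content, which is then 48.1% for Pbx3 and 47.3% for Meis2. Over all tested genes with a GC value it was −0.70. The points share the same 4 libraries, so these are descriptions. An offset that removes each library's trend with GC content and transcript length was therefore used in an alternative fit. Differences between the sexes are given below without it, and for the members and part of the other genes also with it. The shares of the subfamilies are given only without it.

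**Figure D1:**
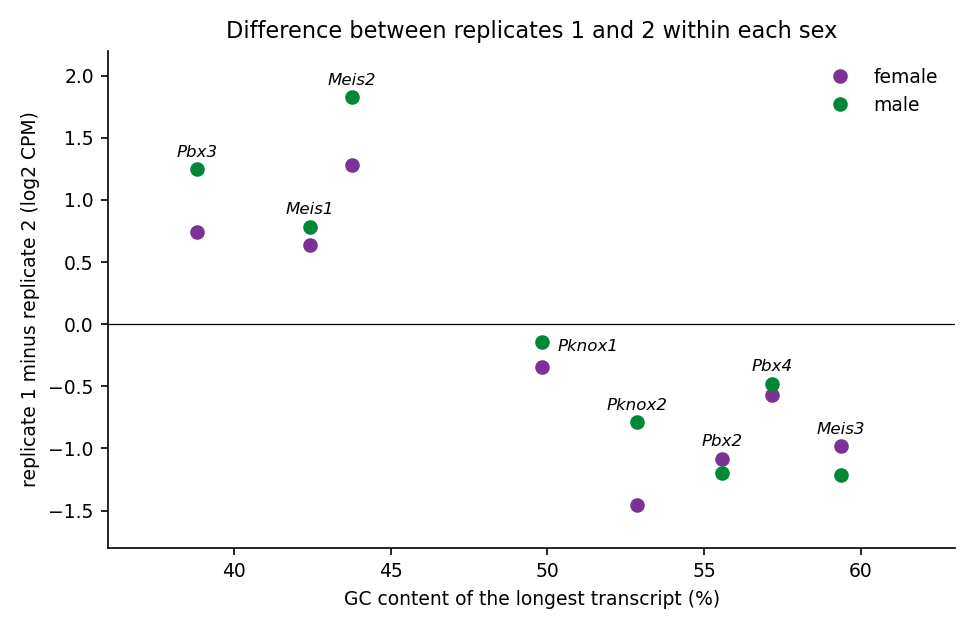
Difference in log2 CPM between replicate 1 and replicate 2 (y axis) against the GC content in percent of the longest transcript (x axis) for the 8 genes, with 1 point per sex. Meis2, Meis1 and Pbx3 lie above 0 in both sexes and the other 5 genes below 0 in both.

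None of the 8 members passed the test of male against female (edgeR quasi-likelihood test, adjusted p threshold 0.05). Of all genes tested 1.23% did, 0.841% with a higher and 0.387% with a lower level in male. DESeq2 and limma-voom called no member either, while they called 5.06% and 1.58% of all genes. No member had an unadjusted p under 0.05 by edgeR or limma-voom, against 9.18% and 9.40% of all genes. By DESeq2 1 of 8, Meis3, did, against 10.8%. In all, 4 members had a higher and 4 a lower fitted level in male. Their median log2 fold change was 0.03, against −0.01 over all genes tested, and lay between −0.098 and 0.0987 in the alternatives, on either side of 0. Male and female values stood apart in 1 member, Pknox1, which was lower in male. In 13.7% of all genes tested the sexes did not overlap, 6.47% with male higher and 7.27% with male lower. Standard errors of the members were 0.30 to 0.57 on the log2 scale, and differences as large as 1.06 did not pass the test. Missing the threshold does not show that the levels were alike.

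**Figure D2:**
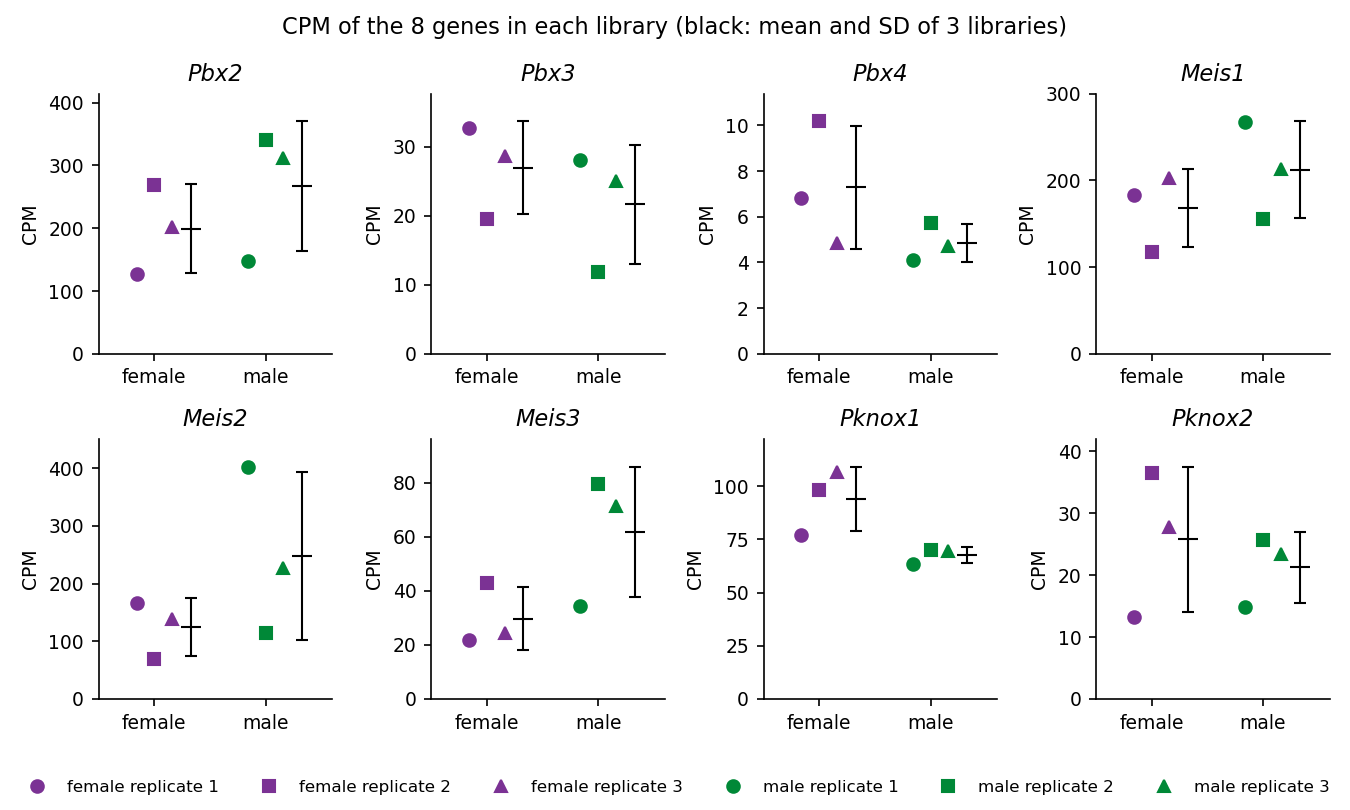
CPM (y axis, from 0, a separate scale per gene) of each gene in the 3 female and 3 male libraries, with the symbol giving the replicate number and the black bar the mean and SD of 3 libraries. The Meis2 value of male replicate 1, at 402.7 CPM, is the highest of that gene, and the sexes do not overlap for Pknox1.

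Of the PBX genes, the DNA-binding partners of HOX proteins, Pbx2 was the most abundant. Its level was 127.0, 269.1 and 201.5 CPM in the female replicates 1, 2 and 3, and 148.5, 339.9 and 312.1 CPM in the male ones. The 2 sexes overlapped, and replicate 1 was the lowest library of each. The means were 199.2 ± 71.1 (female) and 266.8 ± 103.4 CPM (male; SD, n = 3 per sex), with a log2 ratio of male to female of 0.42 ± 0.46 (SE; edgeR adjusted p = 1.0). Pbx3 stood at 32.7, 19.6 and 28.7 CPM in the female replicates 1, 2 and 3, and 28.1, 11.8 and 25.1 CPM in the male ones. Replicate 2 was the lowest library of each sex for Pbx3, the reverse of Pbx2, and the log2 ratio of male to female was −0.32 ± 0.43 (SE; edgeR adjusted p = 1.0). Pbx4, a gene best known from the testis and the least abundant member, had 6.83, 10.2 and 4.84 CPM in the female replicates 1, 2 and 3, and 4.09, 5.73 and 4.72 CPM in the male ones. These values rest on 107 to 207 counts per library and gave a log2 ratio of male to female of −0.59 ± 0.40 (SE; edgeR adjusted p = 0.978).

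The MEIS genes, whose products bind DNA themselves and form complexes with PBX and HOX, all had higher fitted levels in male. Meis1, a cofactor of HOXA9 in blood cells and leukaemia, stood at 182.7, 117.5 and 203.4 CPM in the female replicates 1, 2 and 3, and 267.3, 155.4 and 213.7 CPM in the male ones. The sexes overlapped, because male replicate 2 lay below 2 female libraries, and the log2 ratio of male to female was 0.34 ± 0.37 (SE; edgeR adjusted p = 1.0). Meis2 had 166.9, 68.5 and 139.1 CPM in the female replicates 1, 2 and 3, and 402.7, 113.7 and 226.7 CPM in the male ones. Male replicates 1 and 3 exceeded every female library and male replicate 2 lay below 2 of them. The means of Meis2 were 124.8 ± 50.7 (female) and 247.7 ± 145.7 CPM (male; SD, n = 3 per sex). Its log2 ratio of male to female was 0.99 ± 0.57 (SE; edgeR adjusted p = 0.841).

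Meis3, a paralog of the same DNA-binding type, had the smallest p of the 8 members and did not pass either. Its level was 21.7, 43.0 and 24.3 CPM in the female replicates 1, 2 and 3, and 34.4, 79.7 and 71.5 CPM in the male ones. Male replicates 2 and 3 exceeded every female library, and male replicate 1 lay below female replicate 2. The means were 29.7 ± 11.6 (female) and 61.9 ± 24.2 CPM (male; SD, n = 3 per sex), with a log2 ratio of male to female of 1.06 ± 0.46 (SE; edgeR adjusted p = 0.576).

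With the GC and length offset the standard errors of Meis2 and Meis3 shrank to 0.20 each. Meis2 was then higher in male past the threshold, at a log2 ratio of 1.16 (edgeR adjusted p = 0.0197), in a fit that called 6.13% of all genes and 3.11% as higher in male. Meis3 had 0.74 (edgeR adjusted p = 0.0932) and Meis1 0.66 (SE 0.48, edgeR adjusted p = 0.640) in that fit. The PBX and PREP genes were not called in it. Pbx2 had a log2 ratio of male to female of 0.25 (SE 0.16), Pbx3 −0.27 (SE 0.33) and Pbx4 −0.84 (SE 0.41). Pknox1 had −0.42 (SE 0.18) and Pknox2 −0.32 (SE 0.26). The Meis2 call was lost when another transcript gave both the GC content and the length. The longest Meis2 transcript of the reference, at 5498 bases, is annotated as a retained intron, and with the longest protein-coding transcript of each gene the log2 ratio of male to female was 1.07 ± 0.34 (SE; edgeR adjusted p = 0.141). In that fit no member was called, against 6.48% of all genes. Meis3 had 0.76 (SE 0.19, edgeR adjusted p = 0.0685) there. Without the offset the size of the Meis2 difference moved with single libraries, from 0.45 without male replicate 1 to 1.33 without male replicate 2.

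**Figure D3:**
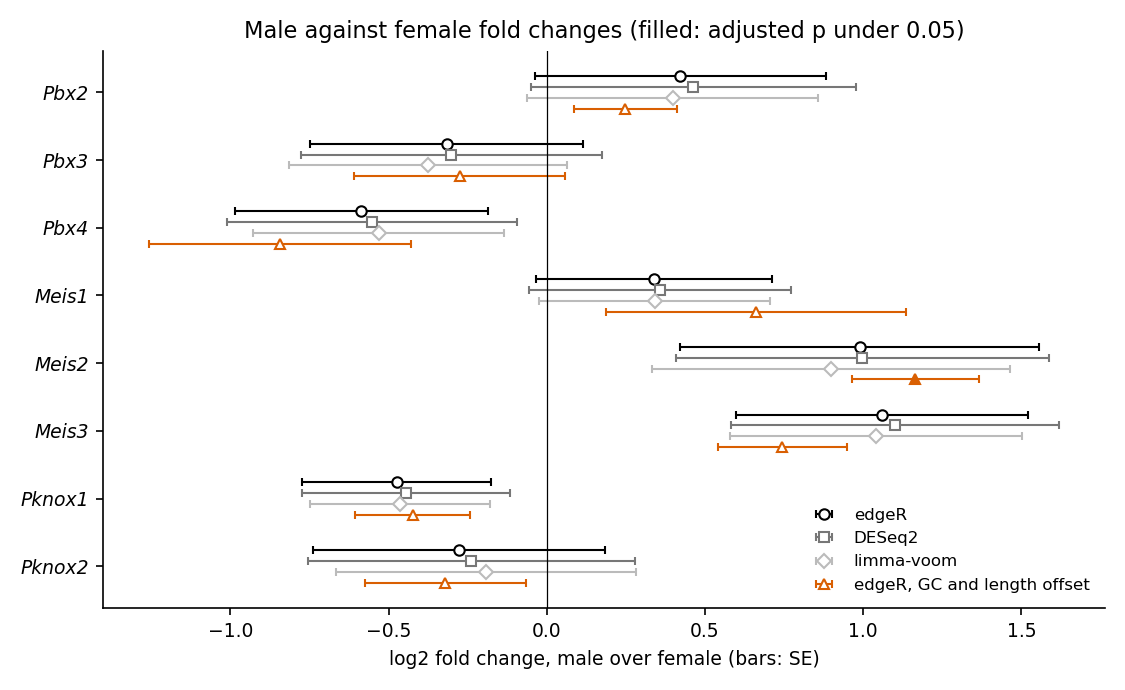
Log2 fold change of male over female (x axis) with its standard error for each gene, by edgeR, DESeq2, limma-voom and edgeR with the GC and length offset, where a filled symbol marks an adjusted p under 0.05. The Meis genes and Pbx2 lie above 0 and the other 4 below 0 in each of these fits, and Meis2 with the offset, at 1.16, is the filled symbol.

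The PREP genes had lower fitted levels in male. Pknox1, which encodes PREP1, a broadly expressed partner of PBX needed for embryonic survival, stood at 77.2, 98.1 and 106.7 CPM in the female replicates 1, 2 and 3, and 63.3, 70.0 and 69.5 CPM in the male ones. Every male library lay below every female one, and the male values spanned a narrow range. The means were 94.0 ± 15.2 (female) and 67.6 ± 3.73 CPM (male; SD, n = 3 per sex), with a log2 ratio of male to female of −0.47 ± 0.30 (SE; edgeR adjusted p = 0.917). Among the members Pknox1 also varied least over the 6 libraries, by 1.68 times from lowest to highest, against 5.88 times for Meis2. Pknox2, its paralog with a more restricted expression, had 13.3, 36.4 and 27.7 CPM in the female replicates 1, 2 and 3, and 14.8, 25.7 and 23.4 CPM in the male ones. Its groups overlapped throughout, with a log2 ratio of male to female of −0.28 ± 0.46 (SE; edgeR adjusted p = 1.0).

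Levels of different genes were compared per kilobase of the longest reference transcript (RPKM), as means ± SD over the 6 libraries. Pbx2 led at 75.9 ± 28.5 RPKM, followed by Meis2 at 33.9 ± 21.6, Meis1 at 25.2 ± 6.81, Meis3 at 23.8 ± 12.7 and Pknox1 at 19.0 ± 4.11 RPKM. Pbx3, at 8.51 ± 2.63, Pknox2, at 6.48 ± 2.37, and Pbx4, at 3.89 ± 1.43 RPKM, were lower. Of the neighbours in that order only Pknox1 and Pbx3 had ranges that did not overlap. Further apart in the order, Meis3, at 11.28 RPKM in female replicate 1, still lay below Pbx3 in that library, at 11.44 RPKM. Pbx2 exceeded Meis2 in 5 of 6 libraries, the exception being male replicate 1, and Meis1 exceeded Meis3 in 3 of 6. The order depends on the length used: with the median transcript length Meis2 came first, at 222.6 RPKM, and Pbx2 second, at 196.5 RPKM. With the longest protein-coding transcript Pbx2 remained first and Meis2 stood at 50.1 RPKM.

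**Figure D4:**
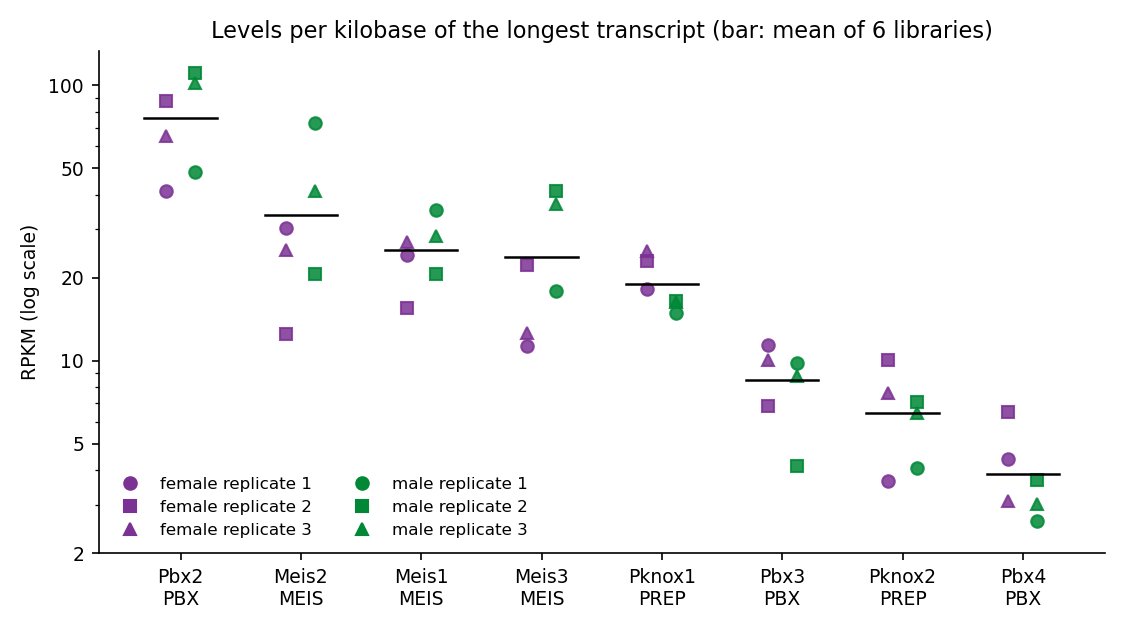
RPKM on a log axis (y axis) of the 8 genes in each of the 6 libraries, ordered by the mean over all libraries, which the bar marks. Pbx2 has the highest mean, at 75.9 RPKM, and among neighbours only Pknox1 and Pbx3 do not overlap.

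The makeup of the family within a library was then described by the share of each subfamily in the summed RPKM of the 8 genes, a ratio that does not depend on library scaling. The PREP genes made up 15.0%, 17.9% and 18.6% in the female libraries and 9.19%, 10.5% and 9.38% in the male libraries, by replicate number. The sexes did not overlap in this share. Pknox1, which is part of it, stood apart by itself, as 13.7% of all genes tested did. The MEIS genes made up 45.4%, 27.3% and 36.8% in female and 61.3%, 36.8% and 43.9% in male libraries, and the PBX genes 39.5%, 54.8% and 44.7% and 29.5%, 52.8% and 46.7%, with overlap in both cases. The ratio of summed MEIS to summed PREP level was 3.02, 1.52 and 1.98 in female and 6.67, 3.51 and 4.68 in male libraries. Its sexes did not overlap with the longest transcript, but with the median transcript length female replicate 1, at 4.12, lay above male replicate 2, at 3.71. From CPM, without a length, the ratio of female replicate 1, at 4.11, also lay above that of male replicate 2, at 3.64. The PREP share stayed apart with the median length, at 13.6% to 18.8% in female and 7.06% to 10.9% in male libraries. These sums over the members were not tested.

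**Figure D5:**
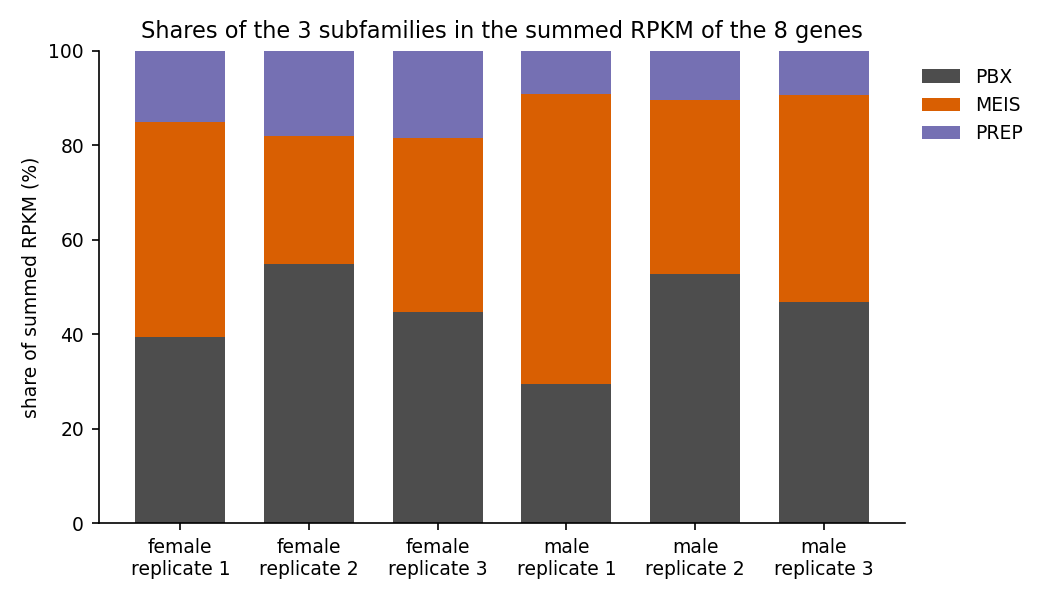
Share in percent (y axis) of the PBX, MEIS and PREP genes in the summed RPKM of the 8 genes in each library (x axis). The PREP share lies between 15.0% and 18.6% in the female and between 9.19% and 10.5% in the male libraries.

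Several marker lists of other cell types also differed between the sexes without overlap, and their part in the MEIS and PREP values was not tested. Gene by gene, the sexes did not overlap in 13.7% of all genes tested. Of all genes tested edgeR called 0.841% higher and 0.387% lower in male. The summed level of 7 endothelial markers was 48.6 to 94.8 CPM in female and 144 to 331 CPM in male libraries, none of the 7 passing the test. Kdr made up most of it, and the other 6 markers were at most 4.47 CPM in any library. Pecam1 was at most 1.72 CPM, Emcn 4.47 CPM and Cdh5 2.52 CPM, and Flt1 reached 2.18 CPM in male replicate 1 and 1.26 CPM in male replicate 3, against at most 0.68 CPM in female libraries. The sum of 9 Sertoli cell markers was 28.7 to 62.2 CPM in female and 83.5 to 147 CPM in male libraries, with 3 of 8 tested members higher in male and Dmrt1 under 1 CPM throughout. The sum of 8 pregranulosa markers, most of it Wnt4, was 117 to 213 CPM in female and 276 to 555 CPM in male libraries, with 1 of 8, Irx5, lower in male. Wnt4 was the only one of the 8 that lay higher in every male library, and Foxl2 (5.11 to 16.5 CPM in female, 1.03 to 2.62 CPM in male), Rspo1 (10.96 to 24.4 and 6.54 to 9.23 CPM), Irx3 and Irx5 lay lower in every male library than in any female one. The sum of 7 neuronal markers, most of it Stmn2, was 14.0 to 16.1 and 59.4 to 73.2 CPM, with 1 of 5 tested members higher in male and Elavl3 and Th under 1 CPM throughout. The sum of 7 markers of kidney progenitors and stroma, most of it Sall1, was 132 to 209.6 CPM in female and 61.5 to 104 CPM in male libraries, with 1 of 5 tested members higher in male and Six2 and Foxd1 under 1 CPM throughout. In the lists for duct epithelium, leukocytes, erythroid cells, fetal Leydig cells, mesothelium and skeletal muscle the sexes overlapped.

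The other TALE genes, which include the TGIF repressors and the Iroquois genes, had 6 of 9 members tested. Of these 1 fell in male, none rose and 5 did not pass by edgeR. Over all genes tested edgeR called 0.387% lower and 0.841% higher in male. The median log2 fold change of the 6 TALE genes was −1.55, against −0.01 over all genes tested. No gene lay near that median. Irx5, Irx3 and Irx6 had log2 fold changes of −2.71, −3.73 and −4.48, and Tgif1, Tgif2 and Mkx had −0.38, −0.13 and 0.35. Irx5, an Iroquois gene, had 1.84, 1.82 and 2.40 CPM in the female replicates 1, 2 and 3, and 0.191, 0.346 and 0.379 CPM in the male ones, with a log2 ratio of male to female of −2.71 ± 0.45 (SE; edgeR adjusted p = 0.0478). The call of Irx5 rests on 147 female and 21 male counts. It was lost without any 1 of the 6 libraries, with edgeR adjusted p-values of 0.0997 to 0.337. All-gene calls fell there too, from 187 to between 0 and 173. The call was also lost with RLE scaling (0.0513) or with no expression filter (0.0625). Irx5 passed by DESeq2 (adjusted p = 2.1e-04) and limma-voom (0.0397). It also passed by edgeR with the stricter filter (0.0369), the GC and length offset (0.0153) and the protein-coding offset (0.0113).

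HOX genes are the partners with which PBX and MEIS share DNA sites. Of 20 tested genes of the paralog groups 1 to 8 none passed by edgeR, 8 had an unadjusted p under 0.05 (9.18% over all genes tested), DESeq2 called 7 higher and none lower (2.92% and 2.15% over all genes), and limma-voom called 1 higher. Hoxb5, with the smallest p, stood at 3.01, 2.80 and 2.84 CPM in the female replicates 1, 2 and 3, and 9.64, 9.44 and 12.8 CPM in the male ones (log2 fold change 1.88, SE 0.33, edgeR adjusted p = 0.0566). Of 13 tested genes of the groups 9 to 13 none passed by edgeR, 3 had an unadjusted p under 0.05, DESeq2 called 1 higher and 1 lower, and limma-voom called none, beside the same shares over all genes. Hoxb9, with the smallest p there, stood at 13.6, 12.7 and 14.6 CPM in the female replicates 1, 2 and 3, and 36.2, 40.6 and 45.1 CPM in the male ones (log2 fold change 1.58, SE 0.30, edgeR adjusted p = 0.0655). For both genes every male library lay above every female one. The median log2 fold changes of the HOX lists were 0.26 and −0.03, and the first was −0.02 with the GC and length offset. Calls rose in that fit, which called 6.13% of all genes and 3.11% as higher in male. Of the groups 1 to 8, 4 were then higher and none lower, among them Hoxb5 (edgeR adjusted p = 0.0346). Of the groups 9 to 13, 1 was higher, Hoxb9 (edgeR adjusted p = 0.0390), and 2 were lower. With the protein-coding offset Hoxb9 passed (edgeR adjusted p = 0.0216) and Hoxb5 did not (0.0738).

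Coregulators that PBX and MEIS complexes recruit or bind showed no call. Of 7 tested genes none passed by edgeR, DESeq2 or limma-voom and none had an unadjusted p under 0.05 by edgeR, and the median log2 fold change was 0.04, or −0.01 when scaled by library size alone. Pbxip1, which encodes a PBX-binding protein that limits its activity, had the smallest p, at 41.3 ± 7.15 (female) and 55.5 ± 10.8 CPM (male; SD, n = 3 per sex). Retinoic acid raises MEIS expression in many cell types. Of 17 tested genes of its synthesis, breakdown and receptors none passed by edgeR without the offset or by limma-voom. By edgeR without the offset 3 had an unadjusted p under 0.05 (9.18% over all genes), and DESeq2 called 1 lower (2.15%). With the GC and length offset 10 of the 17 had an unadjusted p under 0.05 by edgeR, against 2693 of 15227 genes. That fit called 1 lower and none higher, against 6.13% of all genes called. Rdh10, which makes retinal, had 118.0, 141.6 and 166.2 CPM in the female replicates 1, 2 and 3, and 67.8, 58.2 and 66.7 CPM in the male ones, with a log2 ratio of male to female of −1.14 ± 0.31 (SE; edgeR adjusted p = 0.185). The male libraries all lay below the female ones.

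Genes whose level followed a member most closely over the 6 libraries were sought for the most abundant member of each subfamily by CPM, among 9937 genes. For Meis1 they were Wwc2 and Mafg, each with a Pearson correlation of log2 CPM of 0.989, and 35 genes exceeded 0.95. For Pknox1 they were Parva at 0.997, Agbl5 at 0.993 and Farp1 at 0.986, with 40 genes above 0.95. For Pbx2 they were Kctd15, Gga1 and Shisa5, each at 0.999, but 1720 genes exceeded 0.95 there. All these correlations share the 6 libraries and their replicate pattern, and they are descriptions.

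RefSeq's promoter table of GRCm38.p6 holds Pbx2, Pbx4, Meis1, Meis2 and Meis3. In the 250 bases upstream of their starts no match was found on either strand to TGACAG, the core letters of a MEIS or PREP site, or to TGATTNAT, a site of PBX with HOX. These letters occur in 15.9% and 2.82% of 32851 promoter windows of the same length. Pbx3, Pknox1 and Pknox2 have no entry there. The stretch of bases directly after the Pbx2 start was found in no reference transcript used here, unlike those of Pbx4, Meis1, Meis2 and Meis3.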

How the data were processed

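RNA of sorted cells was sequenced as paired 76-base reads from TruSeq v2 libraries, per the labels' protocols. The authors deposited 1 file of raw counts per library, by Ensembl gene; the submitters' processing notes list mm9 as build and TopHat, HTSeq and DESeq as tools, with no version or role. The kit does not mark strand; the annotation, and whether counting used strand, is not given in the sources used here. Summary lines naming no gene entered neither library sizes nor tests: counts outside genes made up 3.53% to 18.2% and counts on more than 1 gene 6.51% to 10.0%. Symbols, lengths and GC content came from a GRCm38 reference and were used without coordinates.

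In R 4.3.3, genes were kept by filterByExpr, TMM-scaled and compared in edgeR 4.0.16 (robust quasi-likelihood test, two-sided, sex as the only term). P-values were adjusted by Benjamini and Hochberg over the 15227 tested genes, with 0.05 as the threshold. Log2 fold changes give male over female, and standard errors are the absolute fold change over the square root of F. The labels call the replicates biological, and each is a pool, so p-values measure the spread between pools. Alternatives were other scalings and filters, DESeq2 1.42.0, limma-voom (limma 3.58.1), a replicate block, an offset from splines with 5 degrees of freedom on GC content and length, which 96.4% of tested genes had, and leaving out libraries. The offset from protein-coding transcripts, the level by their length and leaving out a replicate number in both sexes were added after the data were seen.

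Members and lists were chosen with earlier results of these data known. Named genes were all members, per pathway list up to 4 genes past the threshold or else the gene with the smallest p, the label check genes, and, for the most abundant member of each subfamily, the 3 most correlated genes with a mean of at least 10 CPM (log2 CPM with a prior count of 2). Some genes of the rule and the marker lists are not reported here.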

Additional observations from a re-analysis of the deposited data

How the results depend on the processing

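No member was called by edgeR under any other scaling or filter or without any 1 library, nor by DESeq2 or limma-voom. The GC and length offset gave 1 higher member and, based on protein-coding transcripts, none. The replicate block gave 2 higher (Meis2 and Meis3) and 1 lower (Pknox1), and together with the offset 4 higher and 2 lower; these fits called 27.3% and 29.8% of all genes. The numbers share no stated animal or batch, and deviations from the group means correlated at 0.927, 0.852 and −0.0690 between same-numbered libraries 1 to 3, so the pairing was not taken as given; female replicate 3 correlated best with male replicate 1. The sign of every member held in all 20 alternatives except for the Pknox2 log2 fold change, which was 0.0573 without female replicate 2 and ranged from −0.593 to 0.0573 over the libraries left out (−0.28 with all).

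The 5 pathway lists held 6, 20, 13, 7 and 17 tested genes, in the order given above. Over these lists none was higher and 1 lower by edgeR. Higher and lower counts were 8 and 5 with DESeq2, 1 and 2 with limma-voom, 16 and 13 with the replicate block, 5 and 6 with the offset, 5 and 6 with the protein-coding offset, and 18 and 18 with offset and block. Over all genes tested the shares called higher and lower were 2.92% and 2.15% with DESeq2, 13.1% and 14.2% with the replicate block. They were 14.1% and 15.8% with offset and block. In both directions together limma-voom called 1.58% of all genes, the offset 6.13% and the protein-coding offset 6.48%. Lower counts of the lists were 0 with RLE scaling and 2 with no expression filter. Leaving out libraries gave 0 to 1 higher and 0 to 2 lower. With the median transcript length the levels were 196.5 (Pbx2), 24.6 (Pbx3), 8.38 (Pbx4), 61.4 (Meis1), 222.6 (Meis2), 39.9 (Meis3), 62.4 (Pknox1) and 13.6 RPKM (Pknox2).

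All-gene calls were 187 in the fit of the report, 771 with DESeq2, 4164 with the block, 933 and 986 with the 2 offsets and 4544 with offset and block. Without 1 library they ranged from 0 to 173, and without replicate 1, 2 or 3 of both sexes they were 354, 0 and 0. The cause of these moves was not tested. The members held 107 to 10530 counts per library, fewest in Pbx4, and the effect of depth was not tested.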

Other observations

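The HOX partners showed a pattern by cluster, singled out after the values were seen. In all 8 tested Hoxb genes every male library lay above every female one, as in 6.47% of all genes tested, with log2 fold changes of 0.90 to 2.85, and none passed the threshold (edgeR adjusted p = 0.0566 to 0.373). Hoxa10, a gene of uterine patterning, averaged 231.9 ± 55.3 (female) and 103.5 ± 6.00 CPM (male; SD, n = 3 per sex), with no overlap and a log2 ratio of male to female of −1.16 ± 0.33 (SE; edgeR adjusted p = 0.209). Among the other TALE genes, Irx3 and Irx6 had log2 fold changes of −3.73 (SE 0.66, edgeR adjusted p = 0.0582) and −4.48 (SE 0.84, edgeR adjusted p = 0.0667). Their male values rest on 19 and 23 counts.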
